A study of Mus musculus with 6 samples.

Results

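Genes of mismatch repair, base excision repair and nucleotide excision repair were followed in mouse oocytes that carry a Brwd1 mutation. The set held 39 genes of these pathways, with the direct-reversal enzyme gene Mgmt among them, and 38 were measured, of 19938 genes with a probe set that lists 1 symbol. Each gene was represented by the probe set with the highest mean over the 6 arrays. The DNA glycosylase gene Tdg had only probe sets that also list a pseudogene, so no level is given for it. The mutant group was 3 samples from females homozygous for the Brwd1 mutation, set against 3 samples from wildtype females, both on a B6/C3H background. All 6 samples were oocytes at the germinal vesicle stage, pooled by 100, from females 2 to 6 months old primed 44 h earlier with an injection of 5 IU equine chorionic gonadotropin, which makes ovarian follicles grow. RNA was amplified from 1 ng and each sample was hybridised to its own 1-colour Affymetrix mouse Gene ST array. The labels describe the animals as homozygous mutants without saying which part of Brwd1 is altered or whether different animals gave the pools of a group. The spread behind every p-value is therefore that between these pools and may be technical.

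Mismatch repair removes bases wrongly paired during DNA copying: a MutS dimer that contains Msh6 or Msh3 finds the error, a MutL dimer nicks the strand and the nuclease Exo1 removes it. Base excision repair starts with a DNA glycosylase that cuts out 1 damaged base, after which the site is opened, refilled and sealed. Nucleotide excision repair recognises bulky lesions, opens the helix and cuts out a short strand. A fully grown oocyte is arrested in meiosis and makes little new RNA, and its stored transcripts and proteins also serve the embryo until its own genome is active.

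No repair gene passed the threshold between mutant and wildtype oocytes. With limma, which fits every probe set and moderates its variance, 0 of the 38 had a Benjamini-Hochberg adjusted p under 0.05, where 32 of all 23410 probe sets tested (0.137%) did. At an unadjusted p under 0.05, 4 repair genes were lower in the mutant samples (10.5% of the 38, where 7.4% of all probe sets were), namely Msh3, Lig3, Ogg1 and Nthl1. By the same measure 1 gene, Neil2, was higher (2.63%, where 7.3% of all probe sets were). Shares this close to those of the whole array, from so few genes, are not a result about repair genes. The mutant and wildtype samples did not overlap for 4 genes with lower mutant levels, Msh3, Lig3, Nthl1 and Ercc5 (10.5%, where 9.66% of all probe sets were), and for 1 with higher, Neil2 (2.63%, where the share over all probe sets was 10.1%).

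The fitted differences, all mutant minus wildtype on the log2 scale of the array values, ran from -0.47 for Msh3 to 0.48 for Neil2. Their median was -0.068 over the 38 genes, beside 0.013 over all 19938 genes. Lower mutant means were found for 27 of the 38 genes (71.1%) and higher ones for 11, while 46.5% of all genes were lower. The repair genes were brighter, at a median level of 7.19, than the arrays, whose medians over all probe sets were 4.69 to 4.79. The probe sets with a symbol were also cut at the median of their own mean levels. Over the 11700 above it, the median difference was -0.027. The share of lower means was not computed for genes of like level. No array value gives the count of transcripts, and the normalization hides any change in total RNA per oocyte, so each difference is one relative to the rest of the array.

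**Figure D1:**
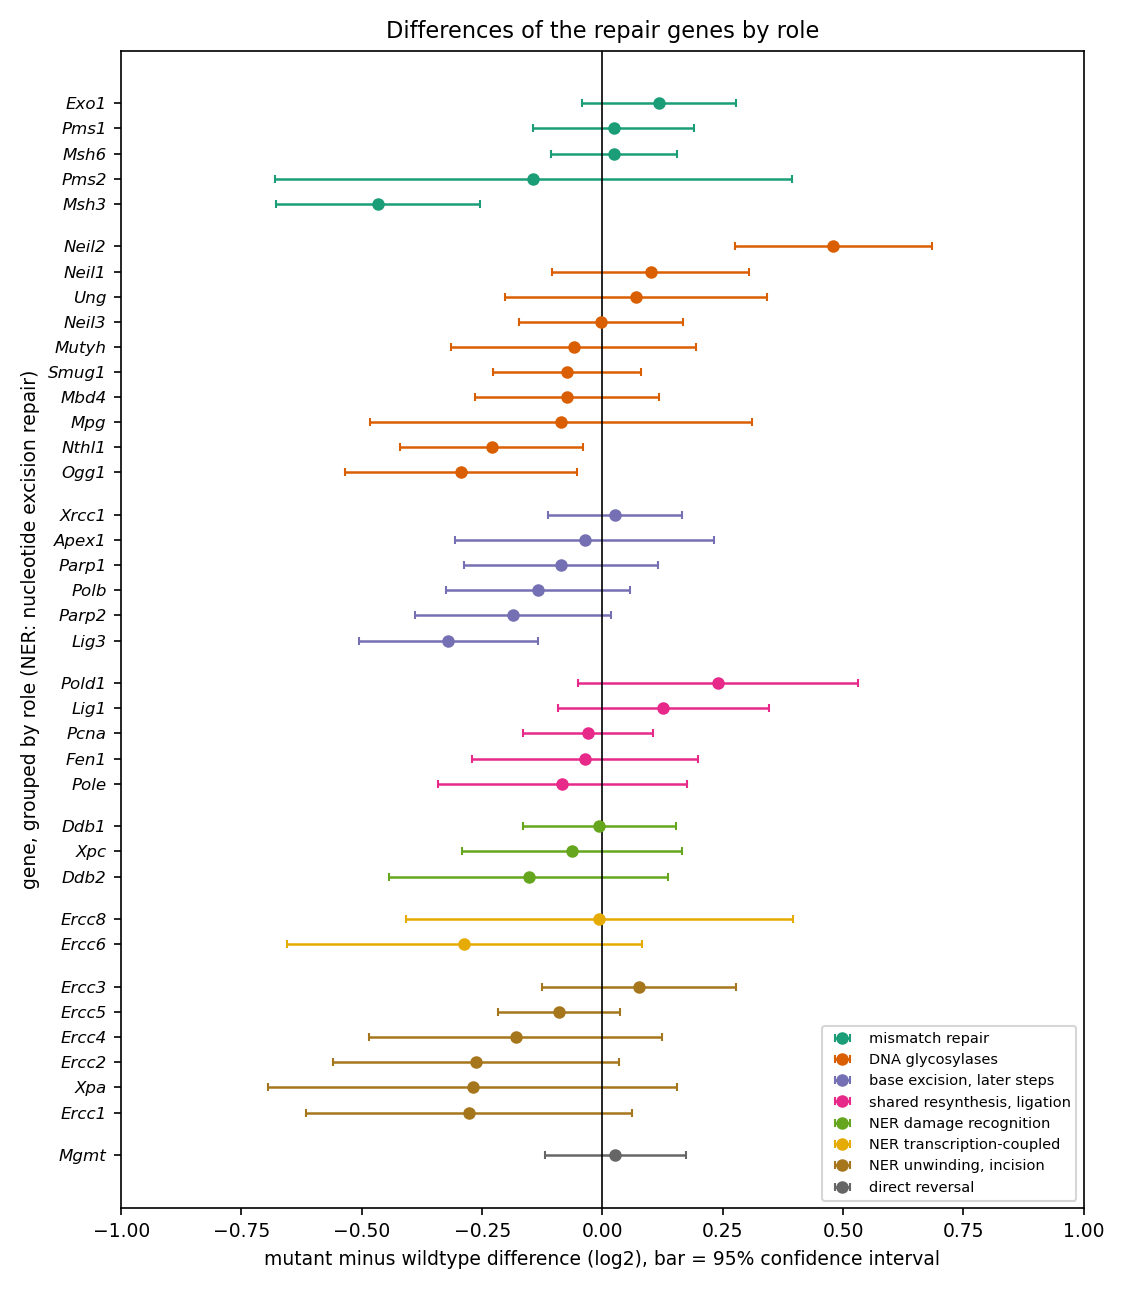
Mutant minus wildtype difference on the log2 scale (horizontal axis) for the 38 repair genes, grouped by role and coloured accordingly. Points are limma estimates over 3 mutant and 3 wildtype samples and bars are 95% confidence intervals. Neil2 at 0.48 and Msh3 at -0.47 lie at the ends, and no interval reaches -1 or 1.

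The intervals describe the measured differences and rest on the spread between these pools alone. All 38 intervals lay between -1 and 1, which is less than a 2-fold difference of the array values either way, and 28 lay between -0.5 and 0.5. The distance from a difference to the end of its interval had a median of 0.21 and ran from 0.13 for Ercc5 to 0.54 for Pms2. Neil1 alone had a group mean at or under 4.48, the 95th percentile of 1210 probe sets of olfactory and vomeronasal receptors that served as a guide to background. The amplification of little RNA and the compression of such arrays near background can make a measured fold smaller than the true one, which applies to Neil1 in particular. It may also apply to Ercc8 and Mpg, which lay not far above the guide. Their mutant means were 4.75 and 4.83 and their wildtype means 4.75 and 4.92, in that order.

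Promoter sequences are printed for Lig3, Ogg1 and Nthl1, since these were among the members that were lower at an unadjusted p under 0.05. That of Msh3, the other such member, is not printed, and none was listed for Neil2. They come from RefSeq on the build GRCm38.p6 and run from 250 bases before to 50 after the start of the gene, at chr11:82780859-82781158, plus strand, for Lig3, chr6:113326726-113327025, plus strand, for Ogg1 and chr17:24632432-24632731, plus strand, for Nthl1. Capitals mark every match, on either strand, to the 5 motifs searched: the CCAAT box (CCAAT), the GC box bound by Sp1 (GGGCGG), the E box (CACGTG), the cyclic AMP response element (TGACGTCA) and an E2F motif (TTTGGCGC).
Lig3: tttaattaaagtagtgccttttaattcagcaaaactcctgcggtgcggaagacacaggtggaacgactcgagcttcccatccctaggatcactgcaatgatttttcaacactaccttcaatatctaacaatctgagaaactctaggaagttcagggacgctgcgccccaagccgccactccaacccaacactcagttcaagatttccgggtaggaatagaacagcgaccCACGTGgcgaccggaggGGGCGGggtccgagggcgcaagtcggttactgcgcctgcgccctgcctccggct
Ogg1: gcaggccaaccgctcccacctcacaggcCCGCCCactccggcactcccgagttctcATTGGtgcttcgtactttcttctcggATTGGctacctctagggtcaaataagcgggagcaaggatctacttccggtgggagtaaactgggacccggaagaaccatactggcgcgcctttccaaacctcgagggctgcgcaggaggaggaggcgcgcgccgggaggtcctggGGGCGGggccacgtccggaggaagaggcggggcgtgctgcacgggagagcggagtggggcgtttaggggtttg
Nthl1: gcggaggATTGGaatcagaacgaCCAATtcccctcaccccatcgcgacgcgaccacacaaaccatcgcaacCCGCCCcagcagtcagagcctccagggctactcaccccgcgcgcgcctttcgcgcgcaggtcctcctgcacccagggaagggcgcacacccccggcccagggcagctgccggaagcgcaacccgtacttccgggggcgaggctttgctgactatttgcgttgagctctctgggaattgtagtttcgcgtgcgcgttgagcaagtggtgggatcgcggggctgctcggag
All 3 promoters hold the GC box, and in none do 2 matches overlap. Lig3 has 1 GC box and 1 E box, Ogg1 has 2 GC boxes and 2 CCAAT boxes, and Nthl1 has 1 GC box and 2 CCAAT boxes. The GC box occurs in 70.3% of the 37 promoters listed for 32 of the repair genes and in 35.7% of all 32851 promoters of the same length. The CCAAT box occurs in 51.4% and 37.4% of them, the E box in 24.3% and 7.15%, the cyclic AMP response element in 2.7% and 1.79%, and the E2F motif in 2.7% and 0.514%. The median GC content was 60% for the repair gene promoters and 52.7% for all, and its part in these shares was not tested. A match is a string of letters and does not show that a factor binds.

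Of the 2 alternative partners in the MutS dimer that recognises mismatches, Msh3 had separate groups and Msh6 overlapping ones. Msh3, whose dimer handles small loops of unpaired bases, was at 7.54, 7.67 and 7.37 in mutant 1, 2 and 3, against 8.03, 7.91 and 8.04 in wildtype 1, 2 and 3. Every mutant sample lay below every wildtype sample, with a log2 difference of -0.47 (SE 0.0891; 95% confidence interval -0.68 to -0.26; limma, adjusted p = 0.132), 1.38-fold lower in mutant oocytes. Msh6, whose dimer handles single mispairs, had a log2 difference of 0.02, with a 95% confidence interval of -0.11 to 0.15, and its groups overlapped. The difference between the responses of these genes was not tested.

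The downstream mismatch repair genes showed no separation of the groups. Exo1, the exonuclease that degrades the nicked strand, was at 9.51, 9.53 and 9.38 in mutant 1, 2 and 3, against 9.41, 9.29 and 9.37 in wildtype 1, 2 and 3. Its groups overlapped, with a log2 difference of 0.12 (SE 0.0673; 95% confidence interval -0.04 to 0.28; limma, adjusted p = 0.469). Pms1, a MutL protein, had a log2 difference of 0.02 (95% confidence interval -0.14 to 0.19). Pms2, the MutL subunit with nuclease activity, was at 5.90, 5.68 and 6.52 in mutant 1, 2 and 3, against 6.23, 6.39 and 5.91 in wildtype 1, 2 and 3. Its mutant samples spread over more than its wildtype samples and held both the lowest and the highest value, with a log2 difference of -0.14 (SE 0.226; 95% confidence interval -0.68 to 0.39; limma, adjusted p = 0.8).

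The DNA glycosylases held the only gene that was higher at an unadjusted p under 0.05 and 2 of those that were lower. Neil2, which removes oxidised bases, in part from single-stranded or transcribed DNA, was at 6.88, 6.89 and 6.76 in mutant 1, 2 and 3, against 6.20, 6.43 and 6.46 in wildtype 1, 2 and 3. All 3 mutant samples lay above all 3 wildtype samples, with a log2 difference of 0.48 (SE 0.0864; 95% confidence interval 0.27 to 0.69; limma, adjusted p = 0.122), 1.39-fold higher in mutant oocytes. Ogg1, which removes 8-oxoguanine, the commonest oxidised form of guanine, was at 7.39, 7.19 and 7.21 in mutant 1, 2 and 3, against 7.69, 7.61 and 7.37 in wildtype 1, 2 and 3. Mutant 1 lay just above wildtype 3 and the groups overlapped, with a log2 difference of -0.29 (SE 0.101; 95% confidence interval -0.53 to -0.05; limma, adjusted p = 0.271). Nthl1, which removes oxidised pyrimidines, was at 7.59, 7.62 and 7.56 in mutant 1, 2 and 3, against 7.90, 7.66 and 7.90 in wildtype 1, 2 and 3. The highest mutant value lay just below the lowest wildtype value, with a log2 difference of -0.23 (SE 0.0802; 95% confidence interval -0.42 to -0.04; limma, adjusted p = 0.273). None of the 3 passed over all probe sets.

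**Figure D2:**
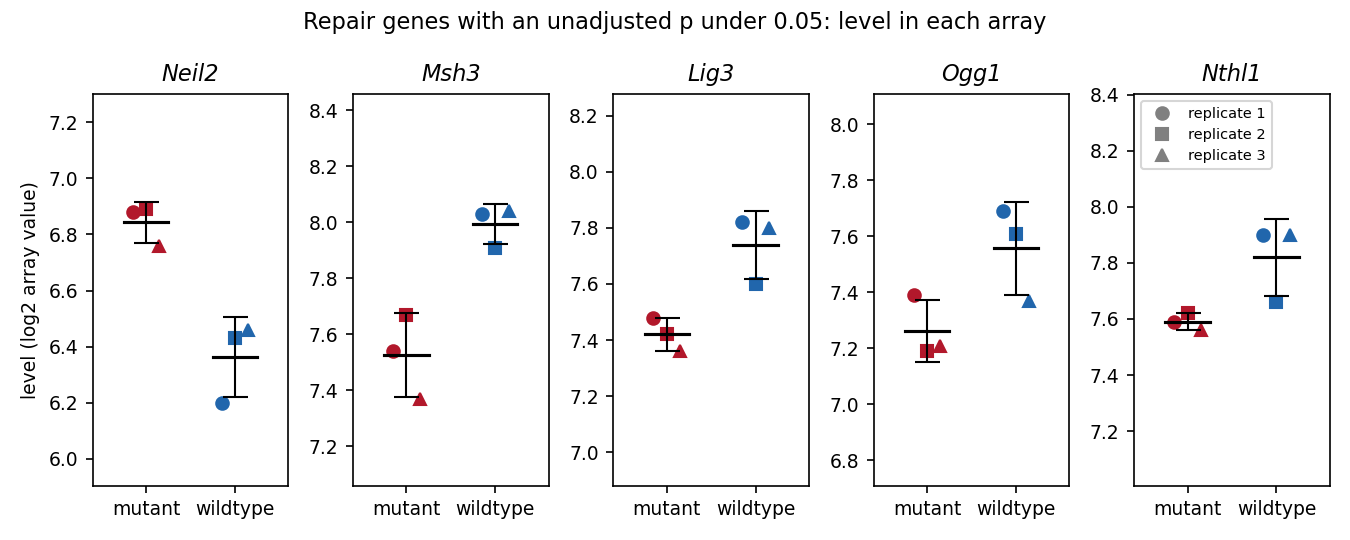
Level in each array (vertical axis, log2 array value, each panel spanning the same range around its own mean) for the 5 repair genes with an unadjusted p under 0.05. Points are single samples, mutant left and wildtype right, with the mean and SD (n = 3 each) as black bars; the groups are apart for Neil2, Msh3, Lig3 and Nthl1 and overlap for Ogg1.

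The other glycosylases stayed within 0.10 of no difference. Neil1, a relative of Neil2 that acts on oxidised bases before replication, had a log2 difference of 0.10 (95% confidence interval -0.11 to 0.31), near background. Neil3, the relative expressed in dividing and germ cells, had a log2 difference of -0.0033 (95% confidence interval -0.17 to 0.17). Ung and Smug1, which remove uracil, had log2 differences of 0.07 and -0.07. Mutyh, which removes adenine paired with 8-oxoguanine, had a log2 difference of -0.06, Mbd4, which removes thymine or uracil paired with guanine at CpG sites, one of -0.07, and Mpg, which removes alkylated purines, one of -0.09. Of the 10 glycosylase genes measured, 7 had lower and 3 had higher mutant means, with a median of -0.067, which was -0.03 without mutant 1, mutant 2, wildtype 2 or wildtype 3.

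Later steps of base excision repair and the repair of single-strand breaks had lower mutant means for 5 of 6 genes, with a median of -0.11. Lig3, the ligase that seals nicks in the nucleus and in mitochondria, was at 7.48, 7.42 and 7.36 in mutant 1, 2 and 3, against 7.82, 7.60 and 7.80 in wildtype 1, 2 and 3. All mutant samples lay below all wildtype samples, with a log2 difference of -0.32 (SE 0.0781; 95% confidence interval -0.51 to -0.13; limma, adjusted p = 0.175), 1.25-fold lower in mutant oocytes. Xrcc1, the scaffold protein that binds Lig3 protein in the nucleus, was at 7.99, 7.97 and 8.09 in mutant 1, 2 and 3, against 8.01, 8.0 and 7.96 in wildtype 1, 2 and 3. Its groups overlapped and its interval was narrow, with a log2 difference of 0.03 (SE 0.0588; 95% confidence interval -0.11 to 0.17; limma, adjusted p = 0.862). Parp2 and Parp1, which mark broken strands with poly(ADP-ribose), had log2 differences of -0.19 (95% confidence interval -0.39 to 0.02) and -0.09 (95% confidence interval -0.29 to 0.12). Polb, the polymerase that refills the gap, had a log2 difference of -0.13 (95% confidence interval -0.32 to 0.06), and Apex1, the nuclease that opens the abasic site, one of -0.04 (95% confidence interval -0.31 to 0.23).

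Genes for resynthesis and ligation that the pathways share with DNA replication had a median of -0.03, with 3 lower and 2 higher mutant means of 5, and with an array left out the median ran from -0.018 to 0.043. Pold1, the catalytic subunit of DNA polymerase delta, was at 6.10, 6.01 and 6.24 in mutant 1, 2 and 3, against 5.97, 5.62 and 6.04 in wildtype 1, 2 and 3. Mutant 2 lay below wildtype 3, so the groups overlapped, with a log2 difference of 0.24 (SE 0.122; 95% confidence interval -0.05 to 0.53; limma, adjusted p = 0.416), and without wildtype 2 the difference was 0.11. Pole, the catalytic subunit of DNA polymerase epsilon, was at 6.70, 6.32 and 6.56 in mutant 1, 2 and 3, against 6.69, 6.49 and 6.65 in wildtype 1, 2 and 3. Its groups overlapped, with a log2 difference of -0.08 (SE 0.109; 95% confidence interval -0.34 to 0.18; limma, adjusted p = 0.759). Lig1, the ligase of replication and of mismatch repair, had a log2 difference of 0.13 (95% confidence interval -0.09 to 0.35), and Fen1, which cuts displaced flaps, one of -0.04 (95% confidence interval -0.27 to 0.20). Pcna, the sliding clamp, had a log2 difference of -0.03 (95% confidence interval -0.17 to 0.11). It had 2 probe sets that were never more than 0.01 apart in any array, and whether one of them reads a near-identical copy was not tested.

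Nucleotide excision repair gave lower mutant means for 10 of its 11 genes, with a median of -0.15, and 0 of the 11 had an unadjusted p under 0.05. Without mutant 2, 7 of the 11 were lower and the median was -0.098. Among the damage recognition genes, Ddb2, the lesion-binding subunit of the UV-damage sensor, was at 8.87, 8.62 and 8.37 in mutant 1, 2 and 3, against 8.81, 8.77 and 8.74 in wildtype 1, 2 and 3. Mutant 1 was the highest of all 6 samples and mutant 3 the lowest, with a log2 difference of -0.15 (SE 0.122; 95% confidence interval -0.44 to 0.14; limma, adjusted p = 0.601). The difference of Ddb2 was -0.28 without mutant 1 and -0.03 without mutant 3. Ddb1, the partner of Ddb2 and an adaptor of ubiquitin ligases, was at 10.14, 10.04 and 10.18 in mutant 1, 2 and 3, against 10.14, 10.19 and 10.05 in wildtype 1, 2 and 3. Its groups overlapped almost fully, with a log2 difference of -0.01 (SE 0.0671; 95% confidence interval -0.17 to 0.15; limma, adjusted p = 0.971). Xpc, which senses distorted helix, had a log2 difference of -0.06 (95% confidence interval -0.29 to 0.17).

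The transcription-coupled branch starts from RNA polymerase stalled at a lesion. Ercc6, also known as CSB, which acts at the stalled polymerase, was at 6.90, 6.36 and 6.59 in mutant 1, 2 and 3, against 7.03, 6.68 and 7.0 in wildtype 1, 2 and 3. Mutant 2 and mutant 3 lay below all wildtype samples while mutant 1 lay within their range, with a log2 difference of -0.29 (SE 0.155; 95% confidence interval -0.66 to 0.08; limma, adjusted p = 0.443). Without mutant 2 the difference of Ercc6 was -0.16. Ercc8, also known as CSA, the substrate receptor of a ubiquitin ligase, was at 5.06, 4.60 and 4.58 in mutant 1, 2 and 3, against 4.79, 4.49 and 4.98 in wildtype 1, 2 and 3. The samples of both groups were scattered and overlapped, with a log2 difference of -0.01 (SE 0.169; 95% confidence interval -0.41 to 0.40; limma, adjusted p = 0.988). The lowest value of Ercc8, in wildtype 2, lay just above the background guide of 4.48.

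The genes that open and cut the helix had the lowest median of the groups with more than 2 genes, -0.22, which was -0.14 without mutant 2 and -0.12 without wildtype 1. Ercc1, the non-catalytic partner of the 5′ nuclease, was at 6.68, 6.63 and 6.36 in mutant 1, 2 and 3, against 7.12, 6.67 and 6.71 in wildtype 1, 2 and 3. Wildtype 1 stood above the other 5 samples, and the groups overlapped, with a log2 difference of -0.28 (SE 0.143; 95% confidence interval -0.62 to 0.06; limma, adjusted p = 0.42), and without wildtype 1 the difference was -0.13. Ercc4, also known as XPF, the nuclease that pairs with Ercc1, had a log2 difference of -0.18 (95% confidence interval -0.48 to 0.12), which was -0.05 without wildtype 1 and -0.32 without wildtype 3. Per RefSeq it lies on chromosome 16, as Brwd1 does, and it is the 1 repair gene of the set there. Ercc5, also known as XPG, which cuts on the other side of the lesion, was at 7.30, 7.31 and 7.27 in mutant 1, 2 and 3, against 7.35, 7.42 and 7.38 in wildtype 1, 2 and 3. Its groups did not overlap, yet they lay close together, with a log2 difference of -0.09 (SE 0.0533; 95% confidence interval -0.22 to 0.04; limma, adjusted p = 0.479).

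Xpa, which checks the damage and positions the nucleases, was at 7.23, 6.66 and 7.39 in mutant 1, 2 and 3, against 7.37, 7.29 and 7.43 in wildtype 1, 2 and 3. Mutant 2 stood apart below the other samples, with a log2 difference of -0.27 (SE 0.179; 95% confidence interval -0.70 to 0.16; limma, adjusted p = 0.528), and without mutant 2 the difference was -0.05. Of the helicases of the TFIIH complex, Ercc2, also known as XPD, had a log2 difference of -0.26 (95% confidence interval -0.56 to 0.03), which was -0.17 without mutant 3 or without wildtype 3. Ercc3, also known as XPB, was at 8.12, 8.10 and 8.27 in mutant 1, 2 and 3, against 8.02, 8.23 and 8.01 in wildtype 1, 2 and 3. It was the only nucleotide excision repair gene with a higher mutant mean, and its groups overlapped, with a log2 difference of 0.08 (SE 0.0848; 95% confidence interval -0.12 to 0.28; limma, adjusted p = 0.713). Mgmt, which reverses alkylation of guanine directly, was at 6.68, 6.71 and 6.67 in mutant 1, 2 and 3, against 6.60, 6.63 and 6.75 in wildtype 1, 2 and 3. Its groups overlapped, with a log2 difference of 0.03 (SE 0.0619; 95% confidence interval -0.12 to 0.17; limma, adjusted p = 0.87).

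The 5 genes with an unadjusted p under 0.05 were chosen on these same 6 arrays, so leaving out each array in turn is no independent check of them. For Neil2, Msh3, Lig3 and Nthl1, whose groups did not overlap, no omission could turn the direction. Ogg1, whose groups overlapped only slightly, also kept its direction. The omissions show how far the size of each difference moved. Differences ran from 0.40 to 0.53 for Neil2, from -0.54 to -0.39 for Msh3, from -0.39 to -0.28 for Lig3, from -0.39 to -0.23 for Ogg1 and from -0.31 to -0.19 for Nthl1. For Neil2, Msh3 and Lig3 the unadjusted p stayed under 0.05 in all 6 omissions. For Ogg1 and Nthl1 it did so in 2 of the 6. No gene of the set reached an adjusted p under 0.05 in any omission.

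**Figure D3:**
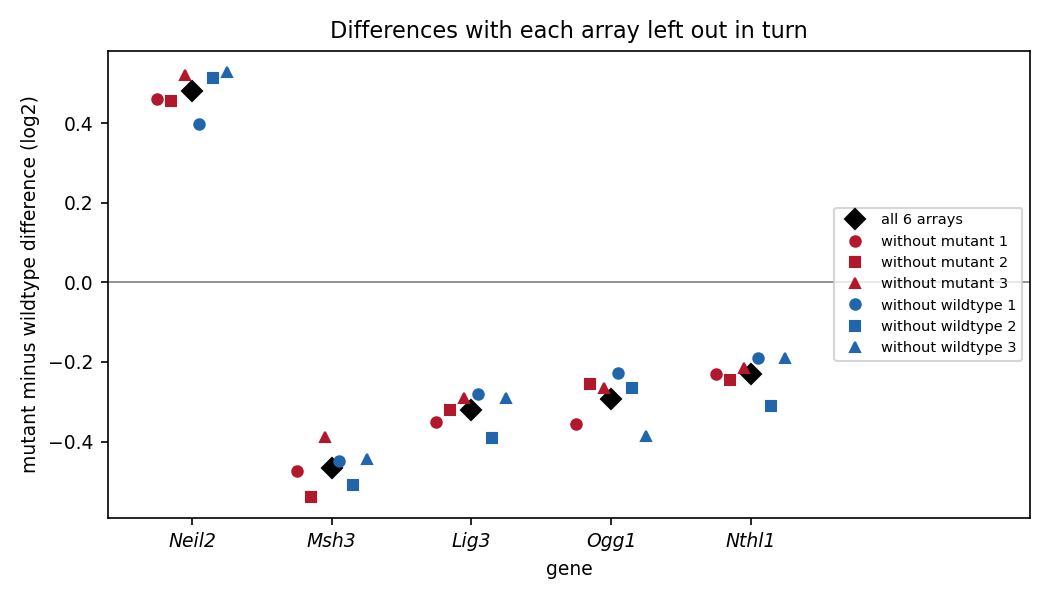
Mutant minus wildtype difference on the log2 scale (vertical axis) for 5 repair genes with all 6 arrays (black diamonds) and with 1 array left out (red for an omitted mutant sample, blue for an omitted wildtype sample, the shape giving the replicate). Neil2 stays between 0.40 and 0.53 and Msh3 between -0.54 and -0.39.

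The samples contributed unequally to the median of the set. Relative to each gene's mean over the 6 arrays, the median repair gene had a log2 difference of -0.0058, -0.063 and -0.018 in mutant 1, 2 and 3, and one of 0.036, 0.030 and 0.037 in wildtype 1, 2 and 3. The medians of the 2 groups did not overlap, but mutant 1 was close to 0 and mutant 2 was the lowest. In mutant 2, 30 of 38 genes were below their own mean, against 20 in mutant 1 and 22 in mutant 3, and 15, 15 and 16 in wildtype 1, 2 and 3. Without mutant 2 the median difference of the set was -0.014. The same medians over all genes lay between -0.010 and 0.0083 in the 6 arrays.

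**Figure D4:**
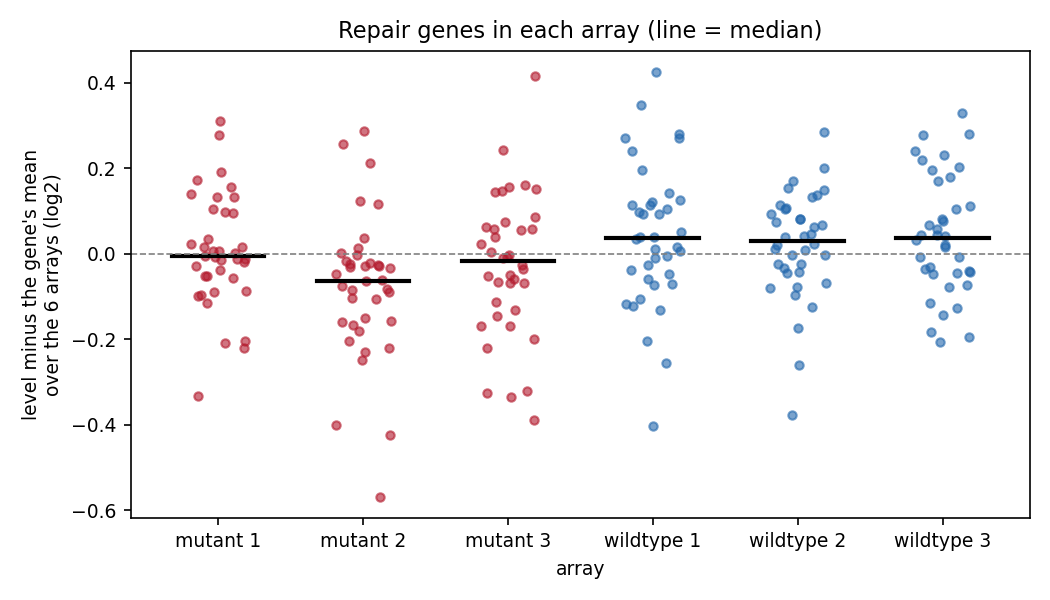
Level of each of the 38 repair genes minus its mean over the 6 arrays (vertical axis, log2) in each array (horizontal axis, mutant left of wildtype). Points are genes and black lines are medians, which run from -0.063 in mutant 2 to 0.037 in wildtype 3.

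Other repair factors, of these pathways and of direct reversal, were listed apart from the members. They included replication protein A, the clamp loader, small subunits of the replicative polymerases, TFIIH subunits and processing enzymes. Of the 41 listed, 38 were measured and 0 passed the adjusted threshold (limma). Their median difference was -0.08, with 30 lower and 8 higher mutant means. At an unadjusted p under 0.05, 7 were lower (18.4%, where 7.4% of all probe sets were) and 0 were higher (where 7.3% were). The groups did not overlap for 11 with lower mutant levels (28.9%, where 9.66% of all probe sets were) and 2 with higher ones (5.26%, where 10.1% were). The 7 all have adjusted p-values of 0.159 or more. This list was chosen with earlier results of these data known, so its shares are not a test. Its genes were also brighter, at a median level of 8.025, than the arrays, whose medians over all probe sets were 4.69 to 4.79.

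The lowest unadjusted p-values in that list belonged to Alkbh2 and Alkbh3, which strip alkyl groups directly from DNA bases. The member Mgmt, which also reverses alkylation directly, had a log2 difference of 0.03. Alkbh2 was at 6.89, 6.95 and 6.85 in mutant 1, 2 and 3, against 7.13, 7.22 and 7.12 in wildtype 1, 2 and 3, and its groups did not overlap, with a log2 difference of -0.26 (SE 0.06; 95% confidence interval -0.40 to -0.12; limma, adjusted p = 0.159). Alkbh3 was at 5.97, 6.09 and 6.04 in mutant 1, 2 and 3, against 6.37, 6.23 and 6.36 in wildtype 1, 2 and 3, again without overlap, with a log2 difference of -0.29 (SE 0.0664; 95% confidence interval -0.44 to -0.13; limma, adjusted p = 0.16). Next came Pold4, a small subunit of DNA polymerase delta, with a log2 difference of -0.39 (95% confidence interval -0.68 to -0.09), Aplf, which binds poly(ADP-ribose) at breaks, one of -0.18 (95% confidence interval -0.33 to -0.03), Aptx, which clears failed ligation ends, one of -0.21 (95% confidence interval -0.39 to -0.03), and Rfc1, the large subunit of the clamp loader, one of -0.16 (95% confidence interval -0.31 to -0.02).

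The labelled genotype and cell type could be checked on the same arrays. Brwd1 was at 4.41, 4.56 and 4.50 in mutant 1, 2 and 3, against 8.91, 9.08 and 8.98 in wildtype 1, 2 and 3. All 13 oocyte markers listed were above the background guide, and their mean level was 10.95 to 10.98 in the mutant and 10.95 to 10.96 in the wildtype samples. Markers of other cells had lower mean levels than the oocyte markers. Near background in at least 1 group were 5 of 13 of granulosa and cumulus cells, 5 of 8 of theca and stroma and 7 of 12 of blood, immune and endothelial cells. The others were above the guide. Their mean levels in the mutant samples were 5.06 to 5.17, 4.39 to 4.46 and 4.72 to 4.82, and in the wildtype samples 4.98 to 5.05, 4.34 to 4.36 and 4.56 to 4.64, for these 3 lists in turn. In each list the lowest mutant mean level lay above the highest wildtype one. Of these markers, 10 of 13, 6 of 8 and 11 of 12 had higher mutant means, where 10665 of all 19938 genes did. Of them 0 passed the adjusted threshold, and their part in the repair gene values was not tested. In such pools, fewer transcripts per oocyte and fewer oocytes that hold them cannot be told apart. Over all 35556 probe sets, Pearson's r was 0.992 to 0.993 between a mutant and a wildtype array and 0.994 to 0.995 within a group, a description in which probe sets share each array.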

How the data were processed

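Transcript levels were measured on 6 arrays, 3 of Brwd1 mutant and 3 of wildtype oocyte pools. The deposited values are log2 values to 2 decimals, made with Affymetrix Expression Console 1.1 and RMA, per the submitters' processing notes. RMA corrects background, brings arrays to a common distribution and summarises probes; no genome build was used for them. Of 35556 probe sets, 23410 had a gene symbol in the platform annotation (21789 with 1, 1621 with several) and 12146 had none listed. All 23410 were fitted without a filter or covariate by limma 3.58.1 in R 4.3.3 (lmFit, eBayes, two-sided), with Benjamini-Hochberg adjustment over them and a threshold of 0.05. SE and 95% confidence intervals are limma's. The array number limits precision. The repair genes and the other lists were chosen with earlier results of these data known. Values per sample are given for genes with an unadjusted p under 0.05 and for the highest and lowest difference of each role, and a few further ones (Pms2, Ercc5, Xpa) were chosen after their values were seen. In 5 simulated tables, 200 of 23410 probe sets were changed by log2 sizes of 0.5, 1, 2 or 4. Noise was drawn independently for each probe set. The fit of mutant against wildtype recovered 58% of log2 differences of 0.5 and 88.4% of those of 1, and 5.22% of calls were false. Large changes ease the adjusted threshold for small ones, so the share for 0.5 may be lower in the measured data, where 32 passed. Alternatives were a replicate block, 3 other normalizations, 2 variance settings, 2 filters on level, all probe sets, gene means, another threshold and leaving out each array, which was also run for each role group after the data were seen. One item is not reported here.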

Additional observations from a re-analysis of the deposited data

How the results depend on the processing

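No repair gene passed an adjusted p under 0.05 in the 10 other settings or the 6 omissions of an array. With the settings of the report, 0 passed under 0.1. Over all probe sets, the count passing was 32 with the settings of the report, 76 with eBayes trend and robust settings, 1 with the replicate block, 1 when all 35556 probe sets were tested, and 1 to 18 with an array left out. The labels state no link between same-numbered arrays. Deviations correlated between -0.031 and 0.036 for same-numbered arrays and between -0.048 and 0.057 for differently numbered ones. With 3 arrays a group, these values cannot show whether the numbers pair the arrays. With the replicate block the median difference of the repair genes was -0.068, and at an unadjusted p under 0.05 there were 2 higher and 6 lower genes, against 1 and 4 without it. Median centring (median of all probe sets -0.047, against 0.01) gave a median of -0.125 and 7 lower genes. Quantile normalization again gave a median of -0.035 and 3 lower genes. Nthl1 was not among them there, with a log2 difference of -0.17 (limma, unadjusted p = 0.0812). With an array left out the median ran from -0.07 to -0.014, the lower genes from 3 to 5 and the higher ones from 1 to 2. Without mutant 2 the median was -0.014, without wildtype 2 it was -0.039, and without wildtype 1 or wildtype 3 there were 2 higher genes; the cause was not tested.

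Signs turned for 15 of the 38 genes in at least 1 setting, none with an unadjusted p under 0.05 in the report. The largest size among them there was 0.143, for Pms2. Median centring gave -0.03 for Xrcc1 and Mgmt and -0.033 for Msh6 and Pms1. Cyclic loess gave 0.0013 for Pcna, 0.026 for Ddb1 and 0.030 for Neil3. Quantile normalization gave 0.0094 for Apex1, 0.017 for Ddb1 and 0.034 for Neil3, and array weights gave 0.0014 for Neil3 and 0.0078 for Ercc8. With an array left out, differences ran from -0.17 to 0.02 for Pole, -0.39 to 0.033 for Pms2, -0.04 to 0.14 for Ung, -0.17 to 0.04 for Mutyh, -0.24 to 0.058 for Mpg, -0.01 to 0.05 for Xrcc1, -0.0033 to 0.072 for Mgmt, -0.0017 to 0.043 for Msh6, -0.11 to 0.043 for Fen1, -0.037 to 0.063 for Pms1, -0.15 to 0.058 for Apex1, -0.045 to 0.033 for Ddb1, -0.063 to 0.042 for Neil3 and -0.16 to 0.11 for Ercc8. The 5 genes with an unadjusted p under 0.05 kept their direction in all 16 settings, with adjusted p-values of 0.0903 or more. Many of these settings could not turn a direction. The replicate block, eBayes trend and robust settings, level filters, all probe sets and gene means left the differences of these genes unchanged. The omissions could not turn those whose groups did not overlap. The 3 arrays a group limit the detection of small differences, as do low levels for the dimmest genes, Neil1, Ercc8 and Mpg.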
